A study of Notophthalmus viridescens with 3 samples.

Results

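The uninjured heart of the adult red-spotted newt, Notophthalmus viridescens, was described by the brightness of its microRNA (miRNA) probes on an array. The uninjured sample is 1 of 3 samples of the series, and the other 2 are hearts taken after injury, which are not analysed here. It is total RNA of whole heart tissue that carried no injury, and 0.5 µg of it entered the assay, of 2.6 µg sent to a service provider. How many animals it holds is not stated in the labels. It was read on 1 array, so there is no replicate sample, no p-value is given, and every spread below is that of the 3 spots of a probe, which is technical. All 1365 miRNA probes of the array were ranked by their signal, the median of the 3 spots minus the median of the empty spots of that array. The probes target miRNAs of human (names starting hsa), zebrafish (dre) and frogs of the genus Xenopus (xtr and xla), and each has a target sequence of its own. Newt miRNAs are therefore read through probes made for other species.

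miRNAs are short RNAs that guide Argonaute proteins to messenger RNAs, which are then repressed. Pairing of the seed, bases 2 to 8 of the miRNA, does most to choose the targets, and miRNAs with the same seed are counted as a family. In vertebrate hearts miR-1 and miR-133 come from shared transcripts of muscle cells, and miR-208 and miR-499 lie in introns of myosin heavy chain genes. The let-7 family accumulates as cells leave the embryonic state and is known for restraining growth genes. Here a family means the number in the miRNA name, without species, letter, arm or star.

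The brightest families are shown by the target of their brightest probe, because their seeds define the leading targets of the signal that follows. Capitals mark the seed.
hsa-let-7a: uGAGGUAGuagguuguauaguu
hsa-miR-1: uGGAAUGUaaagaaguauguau
hsa-miR-23b: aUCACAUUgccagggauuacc
xtr-miR-125a: uCCCUGAGacccuuaaccugug
hsa-miR-26a: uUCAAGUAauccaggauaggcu
xtr-miR-133c: uUGGUCCCcuucaaccagcugc
hsa-miR-133a: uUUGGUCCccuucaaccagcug
dre-miR-499: uUAAGACUugcagugauguuua
dre-miR-30c: uGUAAACAuccuacacucucag
hsa-miR-126: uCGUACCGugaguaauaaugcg
hsa-miR-451: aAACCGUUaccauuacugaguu
hsa-miR-1826: aUUGAUCAucgacacuucgaacgcaau
The frog target of miR-133c starts where the human miR-133a has its base 2, so the pair has shifted seeds although the sequences match over most of their length.

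Few probes carried nearly all the signal. Of the 1365 probes, 225 (16.5%) were detected, that is, the median of their spots was above an intensity of 73.8, which 95% of the 587 empty spots did not pass. Since a probe that was not detected adds at most 5.81, the cut nearly fixes that those 225 held 99.9% of the summed signal. The 14 brightest probes held 50% of it, 42 held 80% and 89 held 95%. Signal above 1000 was reached by 54 probes and signal above 100 by 134, while 39 detected probes stayed under 20. The median signal was 175 over the detected probes and -4.13 over all probes. That median is below 0 because the miRNA spots had a median of 64.1 and the empty spots one of 68.0, and 1067 probes were at or below the empty-spot median. In bulk tissue, fewer cells of a type and less of a miRNA per cell cannot be told apart.

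**Figure D1:**
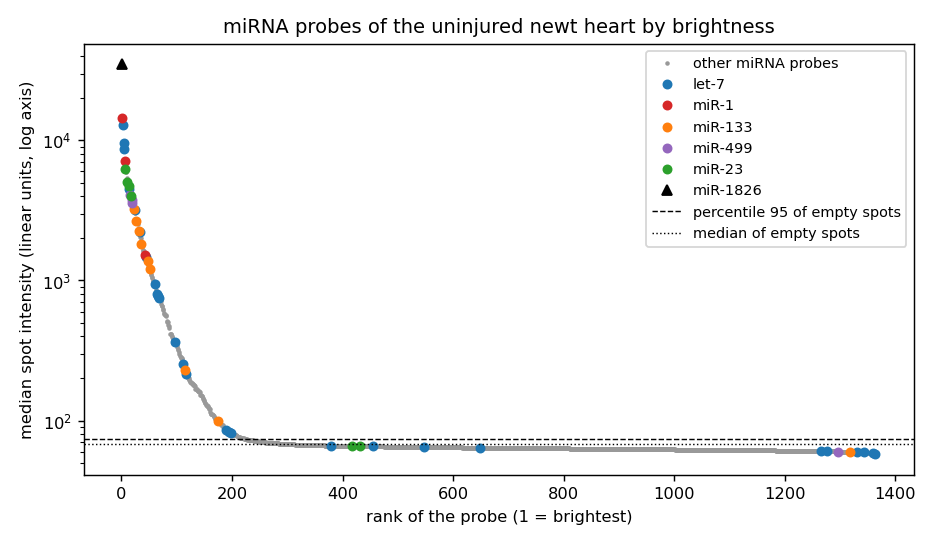
Median spot intensity of each of the 1365 miRNA probes (log axis) against its rank, with 5 families and miR-1826 marked, and the median and percentile 95 of the empty spots as lines. The curve falls steeply over the 225 detected probes and is flat among the rest, where some let-7, miR-133, miR-23 and miR-499 probes also lie.

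The brightest probe was hsa-miR-1826, at 35275 above the empty spots (31870 to 35507 over its spots). This human name has been withdrawn as a miRNA, since its sequence matches ribosomal RNA. The striated-muscle miRNA miR-1 followed at 14382 (13209 to 15480), and let-7a at 12728 (12058 to 14191). The spot ranges of hsa-miR-1 and hsa-let-7a overlapped. Taken spot by spot in array order, hsa-miR-1 was the brighter in all 3. Its intensities were 13276.9, 14449.8 and 15548.2, against 12126, 12795.8 and 14258.5 for hsa-let-7a. With 1 array, whether this order would hold in another sample is not known. Next came hsa-let-7d at 9560, hsa-let-7f at 8609 and the frog probe xtr-miR-1a at 7098. These were followed by hsa-miR-23b at 6133, hsa-miR-26a at 5885 and xtr-miR-125a at 5851. Ranks 10 to 20 were held by further probes of miR-26, miR-23, miR-125 and let-7c, by zebrafish miR-30c at 4402, and by 3 probes of miR-499 between 3497 and 4008. Of the 19 pairs of neighbours among the top 20, 7 had spots that did not overlap. Overlap was judged on ranges and not spot by spot, so it does not by itself make an order unsettled. Signal depends on how well a probe binds as well as on the amount of its target, so this is an order of brightness and not of molecule number.

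**Figure D2:**
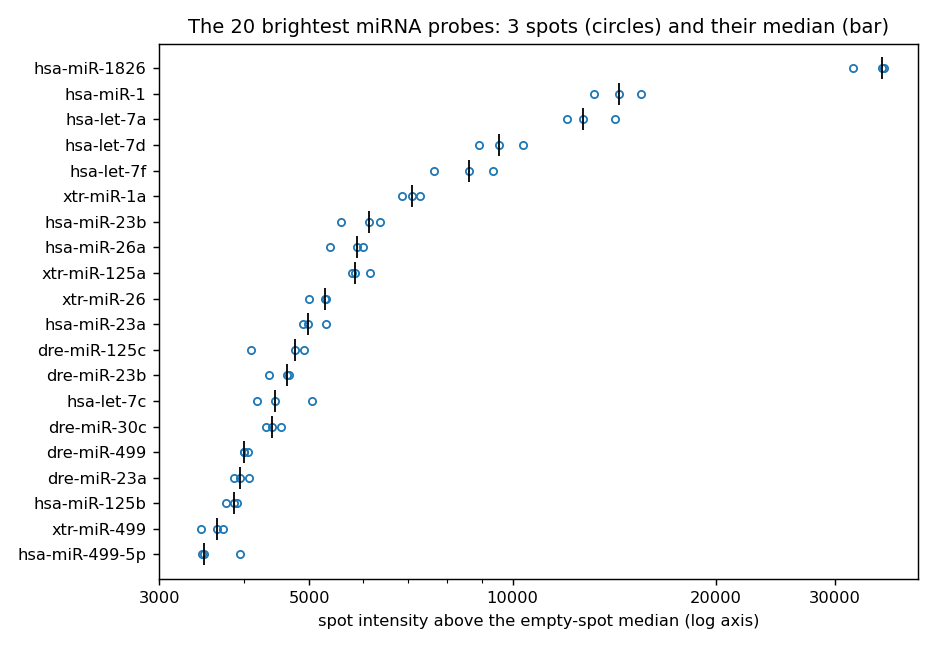
Spot intensity above the empty-spot median (log axis) for the 20 brightest miRNA probes, with the 3 spots as circles and their median as a bar. The spots of hsa-miR-1826 lie apart from all others, while 12 of the 19 pairs of neighbours overlap.

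By family, let-7 held the largest share of the summed signal, 18.1% ± 0.53 (SD over the 3 sets of spots), from 17 detected probes of 27. The single probe of miR-1826 held 13.9% ± 0.39. The muscle family miR-1 held 9.06% ± 0.06 from 3 probes, all of them detected. Then came miR-23, which is encoded in clusters with miR-27 and miR-24, at 7.79% ± 0.22. The family miR-125, the vertebrate relative of worm lin-4, held 5.85% ± 0.07, and miR-26 held 5.72% ± 0.24. The heart and muscle families miR-133 and miR-499 held 4.88% ± 0.17 and 4.41% ± 0.24, and miR-30 held 4.10% ± 0.23. Below them were the endothelial miR-126 at 2.20%, miR-27 at 2.16% and miR-24 at 1.89% ± 0.36. The last of the 15 leading families were miR-22 at 1.64%, miR-16 at 1.46% and the erythroid miR-451 at 1.36%. With spot 2 or spot 3 left out, miR-24 held 1.61% or 1.60% and miR-22 1.69% or 1.68%. The order of miR-24 and miR-22 is therefore not settled. Of 745 family names, 5 held 54.7% of the signal, 15 held 84.5%, and 112 (15%) had at least 1 detected probe.

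These shares depend on how many probes a family has, since near-identical probes can capture the same molecule. Targets that match with at most 1 mismatch were therefore merged into groups, each counted by its brightest member. Such links were chained, so members of a group can differ by more. For example, let-7b, with 2 differences from let-7a, joined it through let-7c. The share of let-7 was then 14.6% and that of miR-1826 22.8%, so their order turned. After merging, miR-23 held 3.96%, miR-26 3.795%, miR-499 2.59%, miR-133 2.15%, miR-27 1.28% and miR-22 1.00%, all lower by over 1.5 times. The shares of miR-24 at 3.07% and miR-451 at 2.22% were higher by over 1.5 times, while miR-1 stood at 9.28% and miR-125 at 7.05%. Merging lowered the summed signal, so a family that loses little of its own signal rises by arithmetic. The single probes of miR-1826 and miR-451 rose for that reason alone. With the brightest probe of each name only, miR-23 held 4.96% and miR-126 1.35%. With miR-1826 left out, let-7 held 21.0%, miR-1 10.5% and miR-23 9.05%. Over probes listed for frog alone or with other species, let-7 held 26.5%, and over those listed for zebrafish 23.7%. Several other shares moved by over 1.5 times with the choice of species. The miR-125 share was 2.64% over human-listed and 11.4% over zebrafish-listed probes. Over human-listed probes miR-26 held 3.71%, miR-133 2.99%, miR-499 2.20%, miR-22 0.87%, miR-27 0.43% and miR-16 0.03%, while miR-1826 held 22.2% and miR-451 2.17%. Over frog-listed probes miR-24 held 4.23%, miR-451 3.07% and miR-27 1.32%, and over zebrafish-listed probes miR-451 held 2.71%. The single probes of miR-451 and miR-1826 kept their signal here too, so their shares moved only with the sum they were set against. Grouping by seed in place of name left let-7 at 18.1%, because the only other probe with its seed, hsa-miR-98, read 0.74 above the empty spots and was not detected.

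**Figure D3:**
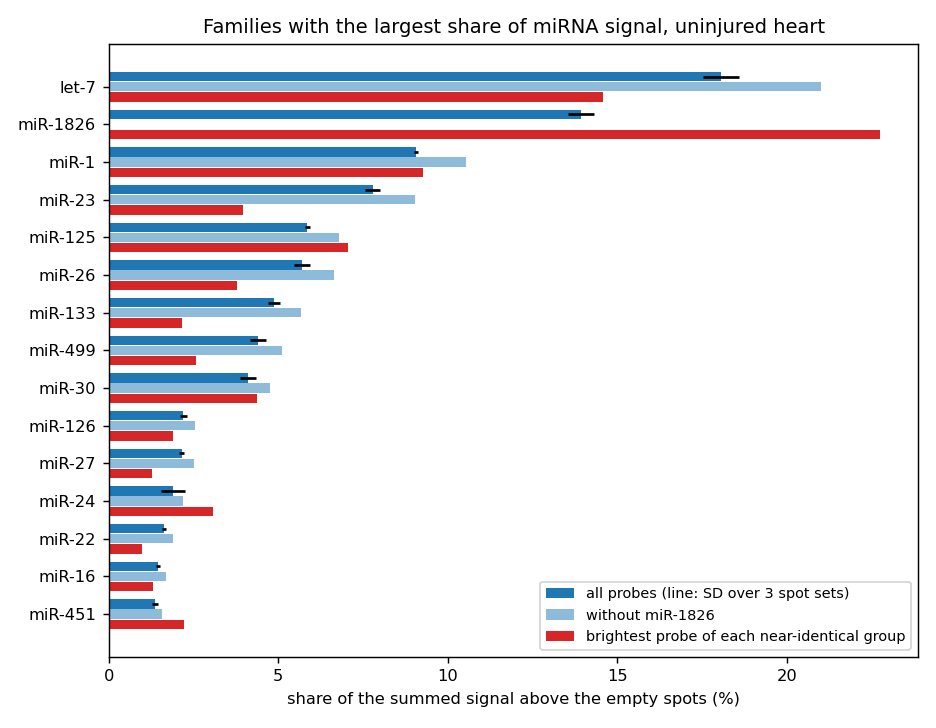
Share of the summed signal above the empty spots (%) held by the 15 families with the largest shares, over all probes (line: SD over 3 spot sets), without miR-1826, and with the brightest probe of each near-identical group. let-7 leads over all probes at 18.1%, and miR-1826 leads at 22.8% when near-identical probes are merged.

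The heart label was set against lists of tissue and cell type families. The striated-muscle families were bright, while the families listed for other organs reached at most 31.9 above the empty spots. The lists leave out other families, among them miR-184, with 3 of 3 probes detected at up to 113, and miR-218, with dre-miR-218a at 58.9. The value of 31.9 therefore holds for the listed families only. The lists were chosen with earlier results of these data known, so this is a description and not a test of the label. Of 20 striated-muscle probes 16 were detected, beside 16.5% of all probes, with a median signal of 1386. They held 18.7% of the summed signal, with near-identical probes counted separately. After merging of such probes, miR-1 held 9.28%, miR-499 2.59% and miR-133 2.15%. Within miR-133, which acts in muscle growth, 8 of 9 probes were detected, the brightest being xtr-miR-133c at 3181 (3074 to 3487). The spots of miR-499, encoded in a myosin gene of slow muscle in mammals, read 4005, 4008 and 4062 in its brightest probe. Of 3 miR-208 probes only the human miR-208b was detected, at 925 (806 to 1113). The human miR-208a and the frog miR-208 probes were not, at -4.58 and -1.83. The probe of miR-206, which marks skeletal muscle in mammals, read 12.4 (7.24 to 15.4), just above the detection level. It shares its seed with miR-1.

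Vessel, blood and connective-tissue families followed. The endothelial miR-126, which lies in an intron of EGFL7, read 2949 (2780 to 3236) in its human probe, and 4 of its 5 probes were detected. Signal was lower for miR-145, a regulator of smooth muscle, at 112 (80.8 to 118), and for its cluster partner miR-143 at 30.7 (25.7 to 34.2). In that list 5 of 7 probes (71.4%) were detected, beside 16.5% of all probes. The erythroid miR-451, which is cut by Argonaute and not by Dicer, read 3447 (3404 to 3580). Its partner in the same transcript, miR-144, read 15.2 in its only detected probe. For miR-486, also abundant in red cells, the 3p arm read 6.69 and the 5p arm -5.93. Beside 16.5% of all probes, 15 of 27 fibroblast and matrix probes (55.6%) were detected. Among them miR-214 read 1724 (1650 to 1782), miR-29d, of a family that represses collagen genes, 1356 with 1 dim spot at 423, hsa-miR-199a-3p 769, and miR-21, which is raised in many injured tissues, 268 (243 to 336).

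Of 14 leukocyte probes 5 (35.7%) were detected, above the 16.5% of all probes, but none exceeded 82.7 in signal, while the median over all detected probes was 175. The brightest was hsa-miR-155, a miRNA of activated immune cells, at 82.7, but 1 of its spots read 5.05. The probe xtr-miR-155 read 81.55 (67.1 to 95.7). For miR-150, found in lymphocytes, the frog probe read 57.9, the human probe 25.2 and the zebrafish probe -3.95. For the myeloid miR-223 the human probe read 31.3 (18.4 to 33.2), while xla-miR-223 read 1.94 and was not detected. All 4 probes of miR-142, which marks blood cells in general, were at or below the empty-spot median.

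Among lists of other organs, epithelial families had 5 of 22 probes detected (22.7%), against 16.5% of all probes, led by xtr-miR-200b at 31.9. Of these 5, dre-miR-141 and dre-miR-200c each had 1 spot below the detection level, at intensities of 62.25 and 70.8. With percentile 99 of the empty spots 4 were detected, so no excess over all probes is read from this list. The remaining lists lay below 16.5%. Neural families had 1 of 19 (5.26%), miR-338-3p at 17.9, and the neuronal miR-124 reached 3.13. The pancreas and endocrine list had 1 of 14 (7.14%), miR-7 at 7.76, and the sensory and eye list 1 of 10 (10%), miR-204 at 6.34. The miR-7 target shares a run of 13 bases with that of the brighter miR-338-3p, so its signal cannot be assigned to a single name. None of the 10 liver probes, miR-122 among them at 2.45, and none of the 26 embryonic and germ line probes was detected. The embryonic list holds miR-302 of mammalian stem cells, frog miR-427 and zebrafish miR-430. In all, 25 of the 49 families in these lists had a detected probe, and 21 with percentile 99 of the empty spots.

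**Figure D4:**
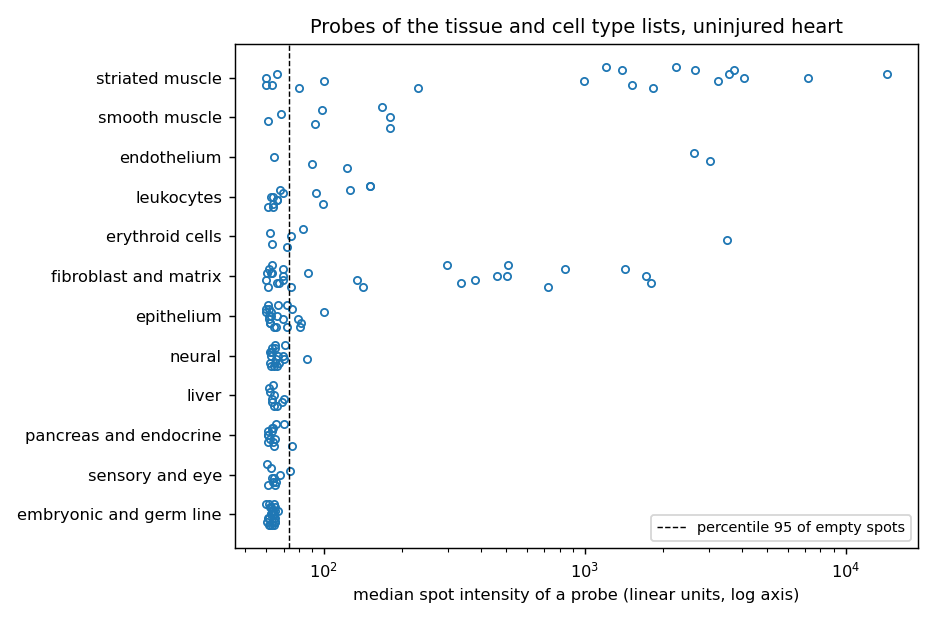
Median spot intensity (log axis) of every probe in the 12 tissue and cell type lists, with percentile 95 of the empty spots as a dashed line. Striated-muscle probes reach the highest values, and no liver or embryonic probe passes the line.

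Many families had every probe at or below the detection level. Of the 745 names, 633 had no detected probe, of which 461 have a single probe. Of the 73 families with at least 4 probes, 34 had none detected. The primate family miR-548 has 27 probes, miR-302 and the primate miR-518 have 11 each, the primate miR-520 has 10, and miR-196 and miR-18 have 9 each. The families miR-9 (brain), miR-34, miR-10, miR-31, miR-135, miR-138, miR-202, miR-320, miR-374, miR-376, miR-429, miR-449, miR-513, miR-517 and miR-519 also had none. So did miR-33, miR-124, miR-129, miR-142, miR-153, miR-187, miR-194, miR-216, miR-219, miR-220, miR-323, miR-378 and miR-430. In miR-10, which lies in the Hox clusters, all 11 probes stayed at or below 0.90. A name below the level says only that no probe of that name read above it, and no newt sequence was set against the probes.

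The members nearest the level were dim and close together. Just above it were hsa-miR-1275 at 6.35, hsa-miR-204 at 6.34 and hsa-miR-195* at 5.91, and just below it dre-miR-18a at 5.69, hsa-miR-18b at 5.64 and hsa-miR-18a at 5.17. The level itself is 5.81 above the empty-spot median. Each of these probes had spots on both sides of the level, so the calls of these 6 are not settled. For the same reason, the place of miR-18 among the families with none detected is not settled.

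Detection went with the species that share a target sequence. Of the 34 probes whose exact sequence is listed for human, frog and zebrafish, 23 (67.6%) were detected, with a median signal of 269.5. Of 78 probes listed for 2 of these groups 45 (57.7%) were detected. Of 88 probes for frog alone 37 (42.05%), of 162 for zebrafish alone 45 (27.8%) and of 1003 for human alone 75 (7.48%) were detected. Names numbered over 500 had 36 of 684 probes detected, against 189 of 681 at or below 500. Of 1148 probes without a star in the name 18.9% were detected. Of 217 star-strand names, the less abundant strand of a hairpin in the older naming, 8 (3.69%) were detected. The brightest were dre-miR-140* at 653, xtr-miR-199a* at 440 and dre-miR-133a* at 161. The target of dre-miR-140* is that of hsa-miR-140-3p with 2 more bases, and hsa-miR-140-5p read 19.2. The target of xtr-miR-199a* covers nearly the same bases as hsa-miR-199a-3p, and hsa-miR-199a-5p read 229. For miR-140 and miR-199a the star name thus did not mark the dimmer arm. Probes with star names held 0.534% of the summed signal.

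Within families on the array for human alone, detection rose with the GC content of the target. Of the 788 probes of these families 45 (5.71%) were detected, beside 16.5% of all probes. None of 80 probes under 35% GC was detected, and 22 of 131 (16.8%) at 65% or over. In families also probed for frog or zebrafish the share lay between 27.8% and 32.9% in each class below 65%, and 0 of 11 probes at 65% or over were detected. The 45 detected probes of human-only families had a median GC content of 64.7% and a median signal of 42.1. The other 180 detected probes had 45.5% and 307. The brightest human-only names after miR-1826 were hsa-miR-1280 at 2461, hsa-miR-1260b at 1951, hsa-miR-4324 at 1563 and hsa-miR-720 at 490. The hsa-miR-1260 probe, a base shorter than hsa-miR-1260b and with the change A9U, read only 9.56. In human, miR-1280, miR-1260 and miR-720 match transfer RNA, and with miR-1826 these names held 15.9% of the summed signal. The part of GC content or of other RNAs in these signals was not tested.

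**Figure D5:**
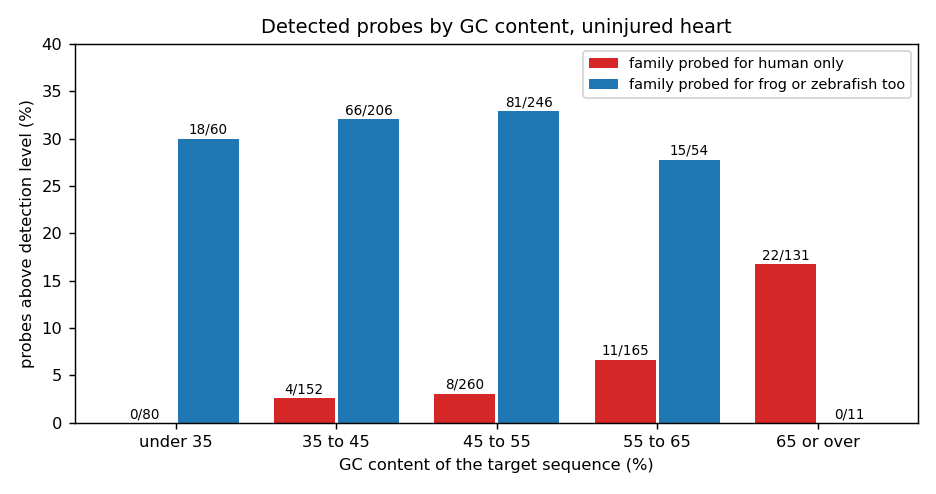
Share of probes above the detection level (%) by GC content of the target, for families on the array for human only and for families probed for frog or zebrafish too, with the number detected over the number of probes above each bar. The human-only bars climb with GC content up to 22 of 131, and the others do not.

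The target of hsa-miR-4324 shares a run of 15 bases with that of zebrafish miR-125c, which read 4771. Capitals mark the run.
hsa-miR-4324: CCCUGAGACCCUAACcuuaa
dre-miR-125c: uCCCUGAGACCCUAACucguga
Of the 225 detected probes, 18 shared a run of at least 11 bases with a brighter probe of another family name, among them miR-107 with miR-103 and members of miR-17, miR-20 and miR-106. For these the signal cannot be assigned to a single name.

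Within let-7, all 17 let-7 probes with the family seed were detected, from 13.5 for xtr-let-7g to 12728 for hsa-let-7a. The targets differ outside the seed, and capitals mark each base that differs from let-7a.
hsa-let-7a: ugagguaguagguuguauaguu
hsa-let-7f: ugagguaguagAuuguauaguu
dre-let-7g: ugagguaguagUuuguauaguu
hsa-let-7e: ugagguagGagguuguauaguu
hsa-let-7c: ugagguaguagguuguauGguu
hsa-let-7d: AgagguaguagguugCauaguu
With positions counted from the 5′ end, the G12A change of let-7f went with 67.6% of the let-7a signal, and the G12U change of zebrafish let-7g with 1.46%. The U9G change of human let-7e went with 5.34%, the A19G change of let-7c with 34.97%, and the pair of changes in let-7d with 75.1%. Probes with 3 differences read 13.5 to 18.3, and those with 4, human and frog let-7i, 293 and 146. Signal thus did not follow the number of differences alone.

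Probes of some names parted in detection. Of 106 names with several probes, 34 had all of them detected, 52 had none and 20 had some. Among the 20 names that differ in detection, the largest gap was in miR-26b, where the zebrafish probe read 3297 and the human probe -3.36. In miR-130b the zebrafish probe read 1960 and the human probe 4.44. Capitals mark the base that differs between the targets of each pair.
dre-miR-26b: uucaaguaauccaggauagguu
hsa-miR-26b: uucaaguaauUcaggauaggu
dre-miR-130b: cagugcaauaaugaaagggcau
hsa-miR-130b: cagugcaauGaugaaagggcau
These are C11U in miR-26b, where the human target is also a base shorter, and A10G in miR-130b. Frog miR-15c read 1043 against -4.56 for the zebrafish probe, but the lowest frog spot had an intensity of 475, before subtraction of the empty-spot median. Frog miR-16c read 689 against -4.86 for the zebrafish probe. Zebrafish miR-193b read 508 against -7.28 for the human probe, a change of G10U. The miR-29c target listed for human and zebrafish read 392 against 1.74 for the shorter frog target. Frog miR-29a read 312 against -6.49 for the human probe, and human miR-21 268 against -0.44 for the zebrafish probe.

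The same pattern was described over every pair of targets that differ by 1 substitution and at most 1 base in length and whose brighter probe exceeded 500. For the 25 pairs with the substitution at positions 9 to 14, the dimmer probe read a median of 1.82% of the brighter, and 16 read under 10%. For the 32 pairs with it at position 15 or later the median was 54.2%, and 7 read under 10%. No such pair differed at positions 1 to 8. The other 9 pairs with a middle substitution read 10.1% to 99.8%. The highest were hsa-miR-30d at 99.8% of hsa-miR-30a, hsa-miR-130a at 93.9% of xtr-miR-130c, hsa-miR-22 at 89.0% of dre-miR-22a, hsa-let-7f at 67.6% of hsa-let-7a and hsa-miR-30a at 51.5% of hsa-miR-30e. Pairs share probes and were ordered by signal, so these are descriptions of the array.

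Targets that differ only in length at the 3′ end also differed in signal. Of 43 such pairs with a detected probe, 36 had both detected, and in 19 of these the spots did not overlap, with the longer target brighter in 12 and the shorter in 7. The median size of the log2 ratio was 0.35, and 10 of the 36 exceeded 2-fold. For miR-1 the target of 22 bases read 2.03 times that of the frog miR-1a, which lacks the last base. For miR-27a the zebrafish target, a base longer, read 46.8 times the human one, at 1145 (1095 to 1209) against 24.5 (15.2 to 47.1). Capitals mark the added base.
dre-miR-27a: uucacaguggcuaaguuccgcU
hsa-miR-27a: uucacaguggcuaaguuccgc
For miR-29b the longer target, listed for human and frog, read less, at 6.76 against 65.8 for the zebrafish target. By contrast, the pairs of miR-145, miR-191, miR-214 and miR-155 differed by at most 1.13-fold with overlapping spots.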

How the data were processed

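Total RNA of uninjured whole heart was tailed with an adapter for Cy3 staining and hybridised to 1 array, per the labels' protocols. Each spot's deposited value is a median intensity, linear and without a local background, per the file headers. The image software was not given in the sources used here. A processed intensity for every probe was also deposited by the authors, on a linear scale judging by its values, by an unstated method. It served as an alternative, and its log2 values had a Pearson correlation of 0.997 with those computed here over the 225 detected probes, which share the same spots.

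Signal was the median of 3 spots minus the median of 587 empty spots (68.0). Shares were taken over 1365 probes with negative signals set to 0. A probe was detected above percentile 95 of the empty spots. Targets were merged when they differed by no more than 1 base over an overlap of 18 or more, allowing shifts of up to 2. Links were chained through shared partners, so members of a merged group could differ by more than 1 base. Spots of the detected probes correlated at 0.991 to 0.992 on the log2 scale, and their median CV was 13.8%. The number of arrays limits the precision. Python 3.11.15, pandas 2.3.3 and limma 3.58.1 (normexp alternative) were used. The share and detection steps were tested on simulated data. All 200 simulated probes with signal were detected, and 11 of 1165 without signal. The simulated signals were all brighter than the dimmest detected probes here, so detection of signals near the level was not tested. Alternatives covered the detection level, spot summary, background, species, merging of probes and the authors' values.

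The text names the 20 brightest probes, the 15 leading families, the listed families, the 3 probes on each side of the level, undetected families with at least 4 probes and up to 8 names that differ in detection. Other probes were named after their values were seen. The members and lists were chosen with earlier results of these data known. No genome was used, and no positions are given.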

Additional observations from a re-analysis of the deposited data

Results flagged for a closer look

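Control probes for 5S rRNA, which no comparison above uses, carried signal. The brightest, a frog 5S rRNA probe, read 49295 above the empty spots, which exceeds the brightest miRNA probe at 35275. Of the 18 probes for 5S rRNA, 14 were above the detection level, with a median signal of 4897 over all 18. Whether such RNA adds to the signal of miRNA probes was not tested.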

How the results depend on the processing

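The number of detected probes, 225, lay between 204 and 229 under the other detection levels and spot summaries tried, and at 218 with the empty spots inside the probe rows only, a choice made after seeing the data. With each spot left out in turn it was 220 to 238. The 633 names without a detected probe became 630 to 648 under other levels and summaries, and 862 seeds of 973 had none. The 20 brightest probes were the same 20 with the mean of spots and with the authors' deposited values. The let-7 share of 18.1% moved by more than its SD over spots to 18.9% with the brightest probe per name, 14.6% with near-identical targets merged, 25.1% over human-listed probes, 23.7% over zebrafish-listed and 26.5% over frog-listed probes. It was 21.0% without the brightest probe, 17.3% with normexp and 13.9% with no background subtraction. With each spot left out it was 18.1% to 18.6%. let-7 led in 14 of 15 alternatives, the exception being the merged targets, where miR-1826 led at 22.8%. Frog-listed and zebrafish-listed probes do not include miR-1826, and it is the brightest probe left out. Those alternatives therefore could not set let-7 against miR-1826. Most of the others reuse nearly the same values, so the count does not measure how firm the lead is. The listed families with a detected probe were 25, and 21 at percentile 99. No paired analysis was possible because each group holds 1 sample. Dim probes are limited by the spread of the empty spots, and 39 detected probes read under 20 above them.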

Other observations

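Several families outside those lists were also well above the empty spots, and were chosen after their values were seen. In their brightest probes, miR-222 read 922 and its cluster partner miR-221 read 443, and both act on cell cycle inhibitors in other vertebrates. The hypoxia miRNA miR-210 read 283, miR-191 read 1019, and miR-19d of the zebrafish read 1192, while the human miR-19b target, with 1 base changed, read -2.86. The human probes of miR-103 and miR-107 read 349 and 310, and zebrafish miR-107b read 337. The miR-107 targets share runs of 21 and 19 bases with miR-103, so these signals cannot be assigned to a single name.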
